A study of Mus musculus with 19 samples.

Results

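The genes described are 10 genes that sensory neurons are known to switch on after their axons are damaged, namely Atf3, Sprr1a, Sox11, Gap43, Ecel1, Gadd45a, Jun, Flrt3, Stmn4 and Vgf. They were found by gene name among 36682 genes of the deposited table of counts and FPKM, and each name had 1 row. RNA was sequenced from dorsal root ganglia (DRG) of 19 mice, all male and all homozygous for the MaFIA transgene (macrophage Fas-induced apoptosis). In this strain the Csf1r promoter drives a Fas-based suicide receptor, so the dimerizer AP20187 can trigger death of macrophages and other Csf1r-expressing myeloid cells, and the vehicle mice carry the transgene too. Mice had destabilization of the medial meniscus (DMM), in which a cut ligament frees the meniscus and knee osteoarthritis follows, or had no surgery and served as naive controls of like age. Each received AP20187 or vehicle by intraperitoneal injection 1 time a day on 5 consecutive days, and DMM tissue was taken 8 weeks after surgery. The L3 to L5 ganglia of 1 side, that of the operated knee in DMM mice, were pooled for each mouse. The side taken from naive mice is not given in the sources used here. The groups were DMM with AP20187 (n = 5, mice 58 to 62), DMM with vehicle (n = 5, mice 32, 33, 34, 63 and 64), naive with AP20187 (n = 4, mice 1, 3, 4 and 5) and naive with vehicle (n = 5, mice 1 to 5).

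When a peripheral axon is cut or crushed, kinases and transport signals reach the cell body and switch on transcription factors, among them ATF3, the AP-1 subunit JUN and SOX11. These factors act with one another on genes of axon growth, such as Gap43 and Sprr1a, and the state they set up is why peripheral sensory neurons can regrow. Atf3 is nearly silent in neurons of an uninjured ganglion and is widely used as a marker of axon damage, while Gap43, Jun and Vgf are also made by neurons that are not injured. Several of these genes are not exclusive to neurons: Atf3, Jun and Gadd45a are general stress-response genes of many cell types.

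Promoter sequences are shown first because ATF3 and JUN, both in the list, bind related DNA motifs. RefSeq promoter windows of build GRCm38.p6, running from 250 bases before the gene start to 50 bases into the gene, were given for 7 of the 10 genes. They were searched on both strands for the AP-1 motif TGANTCA, the cyclic AMP response element (CRE) TGACGTCA, and TGATGNAA, which joins a C/EBP half-site to an ATF half-site. A variant of the CRE, TGACATCA, was added after these windows had been read. The AP-1 motif was in 1 of the 7 windows, that of Sprr1a, which held 2 matches, and in 7.81% of all 32851 windows. The CRE was in 0 of the 7 and in 1.79% of all windows, and TGATGNAA was in 1 of the 7 (Atf3) and in 3.97% of all. The variant CRE was in 4 of the 7 windows (Sprr1a, Sox11, Jun and Flrt3) and in 3.62% of all, a share that cannot be weighed because the motif was picked from these windows. None of the printed matches overlapped another. The 5 windows with a match are given from 5′ to 3′ on the gene's strand, which is the minus strand in all 5, for the 250 bases before the gene start, with matches in capitals. They lie at chr3:92485882-92486131 for Sprr1a, chr4:95052223-95052472 for Jun, chr12:27342719-27342968 for Sox11, chr2:140671477-140671726 for Flrt3 and chr1:191183334-191183583 for Atf3.
Sprr1a: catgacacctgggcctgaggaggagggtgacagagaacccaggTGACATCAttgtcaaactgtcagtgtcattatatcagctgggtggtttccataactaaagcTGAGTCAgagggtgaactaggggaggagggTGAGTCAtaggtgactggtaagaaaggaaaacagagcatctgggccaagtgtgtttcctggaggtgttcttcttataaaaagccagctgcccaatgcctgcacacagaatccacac
Jun: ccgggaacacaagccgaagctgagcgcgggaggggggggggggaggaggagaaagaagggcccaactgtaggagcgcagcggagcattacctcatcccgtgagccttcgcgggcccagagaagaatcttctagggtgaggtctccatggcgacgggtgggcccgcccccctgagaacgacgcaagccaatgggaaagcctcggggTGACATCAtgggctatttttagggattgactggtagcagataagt
Sox11: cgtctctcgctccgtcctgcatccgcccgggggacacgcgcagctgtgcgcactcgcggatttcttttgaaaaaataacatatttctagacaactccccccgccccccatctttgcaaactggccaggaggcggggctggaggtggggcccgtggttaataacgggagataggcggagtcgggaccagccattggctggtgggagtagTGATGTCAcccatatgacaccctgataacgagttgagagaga
Flrt3: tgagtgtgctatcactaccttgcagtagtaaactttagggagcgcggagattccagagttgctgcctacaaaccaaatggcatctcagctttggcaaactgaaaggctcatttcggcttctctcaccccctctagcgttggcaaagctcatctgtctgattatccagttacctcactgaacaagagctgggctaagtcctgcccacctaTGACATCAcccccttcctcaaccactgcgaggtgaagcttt
Atf3: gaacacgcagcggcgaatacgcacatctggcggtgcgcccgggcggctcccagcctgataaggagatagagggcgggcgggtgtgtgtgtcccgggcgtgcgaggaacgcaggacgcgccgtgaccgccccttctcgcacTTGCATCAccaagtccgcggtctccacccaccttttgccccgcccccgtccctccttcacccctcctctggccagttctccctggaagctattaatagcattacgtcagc
In Jun, Flrt3 and Sox11 the variant CRE began 45, 41 and 42 bases before the gene start, whereas in Sprr1a it began 207 bases before it. The matches describe letters only, and binding was not measured.

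Library totals were 60984830 to 74691396 counts. Neuronal RNA differed widely between libraries. The summed level of 12 pan-neuronal markers, in CPM (counts relative to a TMM-scaled library total), was 1709 to 7217 after AP20187 and 5144 to 14664 after vehicle in DMM mice, and 2255 to 11323 against 8038 to 16518 in naive mice. It was lowest in mouse 58 of DMM with AP20187 and in mouse 3 of naive with AP20187. In AP20187 against vehicle, 7 of the 12 fell in DMM and 0 of the 12 passed the test in naive. In bulk ganglia fewer neurons and less RNA per neuron cannot be told apart. The 9 markers of marrow granulocyte precursors went the other way, with summed CPM of 14948 to 25550 after AP20187 and 339 to 6713 after vehicle in DMM mice, and 6890 to 24338 against 705 to 1964 in naive mice. Of them, 8 of 9 rose in DMM and 9 of 9 in naive, where 11.3% and 8.61% of all tested genes rose. The 6 skeletal muscle markers summed to 1560 to 2373 CPM in treated naive mice and to 11.8 to 421.7 in their vehicle controls. No marker of the pan-neuronal, granulocyte or muscle lists was at 0 in any library. What these other tissues contributed to the values below was not tested. Within DMM with vehicle, mice 63 and 64 had the 2 lowest pan-neuronal sums (11499 and 5144 CPM, against 12305 to 14664 in mice 32 to 34). They also had the highest granulocyte precursor sums (2320 and 6713, against 339 to 1775) and erythroid sums (7782 and 18049, against 1080 to 4677). Whether the 2 number series are separate cohorts is not given in the labels.

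AP20187 against vehicle moved 1 of the 10 injury genes past the threshold in each surgical state, and it was a different gene in each. In DMM mice Gap43 fell, and in naive mice Atf3 rose. Among all 22778 tested genes, 23.8% passed in DMM (11.3% higher, 12.4% lower) and 11.2% passed in naive (8.61% higher, 2.57% lower), so the share of the injury genes was below the background in DMM and near it in naive. DMM against naive moved 0 of 10 with vehicle, where 0% of all genes passed, and 0 of 10 with AP20187, where 0.702% passed. The interaction, the difference between the DMM and the naive response to AP20187, moved 0 of 10 against 0.114% of all genes. At an unadjusted p under 0.05, edgeR counted 2, 4, 0, 0 and 1 of the 10 in these 5 comparisons, against 37.3%, 28.8%, 1.66%, 16.7% and 7.67% of all genes. DESeq2 and limma voom also passed 0 of the 10 in each surgery comparison and in the interaction. Of all genes, DESeq2 passed 0% with vehicle, 4.87% with AP20187 and 1% in the interaction, and limma voom 0.00439%, 10.8% and 0.233%. The comparisons share groups with one another, so their values are not independent. The median log2 fold change of the 10 genes was -0.49 in DMM and -0.55 in naive for AP20187 against vehicle, where that of all tested genes was -0.10 and -0.07.

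**Figure D1:**
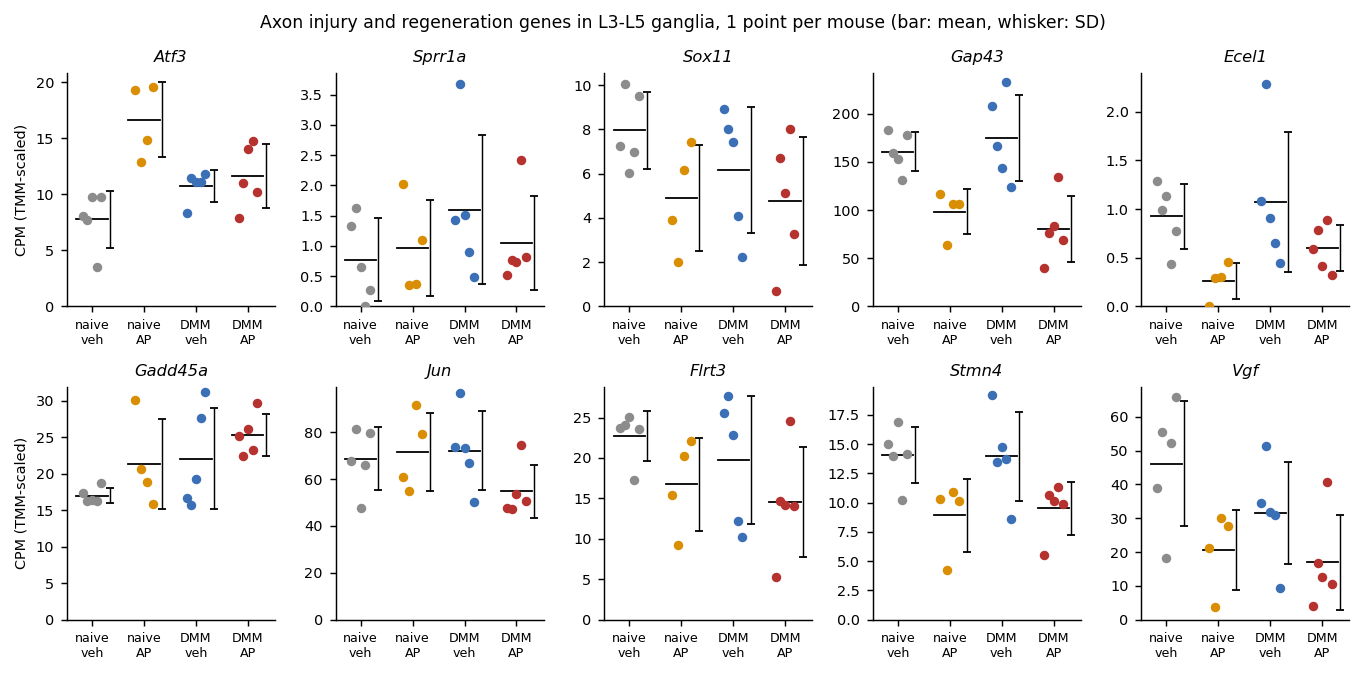
CPM of each of the 10 genes (vertical axes, starting at 0) in the 4 groups, with 1 point per mouse, the group mean as a bar and the SD as a whisker. Atf3 lies at 12.9 to 19.5 in naive with AP20187, above all naive vehicle mice, and the Gap43 means are 80.4 and 174.9 in DMM mice with AP20187 and vehicle.

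Atf3 encodes a stress-inducible transcription factor of the ATF/CREB family (chromosome 1, 190902493 to 190950236, minus strand, build GRCm39). In naive mice with AP20187 it was at 19.3, 12.9, 14.9 and 19.5 CPM in mice 1, 3, 4 and 5. With vehicle it was at 8.05, 7.66, 9.73, 3.55 and 9.75 CPM in mice 1 to 5. Every treated naive mouse was above every vehicle mouse. The means were 16.6 ± 3.32 (SD, n = 4) and 7.75 ± 2.53 (SD, n = 5), a log2 difference of 1.10 (SE 0.25, adjusted p = 0.00984). In DMM mice with AP20187 it was at 7.89, 11.0, 14.1, 14.8 and 10.2 CPM in mice 58 to 62, and with vehicle at 8.29, 11.5, 11.1, 11.1 and 11.8 in mice 32, 33, 34, 63 and 64. Those ranges overlapped fully, with a log2 difference of 0.11 (SE 0.24, adjusted p = 0.785). The naive call held in all alternatives tried, with log2 fold changes from 0.79 to 2.19 and adjusted p from 0.000682 to 0.0429. Beside it, the muscle markers were higher in each treated naive mouse. Of 8 macrophage markers 3 rose and 0 fell in naive, where 8.61% and 2.57% of all genes did. Their summed CPM was 375 to 636 with AP20187 and 72.3 to 389 with vehicle, and none was at 0 in any library. The granulocyte precursor markers were higher too, as given above. The part of muscle, macrophage or granulocyte RNA in the Atf3 difference was not tested.

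The difference between the 2 AP20187 effects on Atf3 was -0.99 on the log2 scale (SE 0.35, unadjusted p = 0.0101), and its adjusted p of 0.439 missed the threshold. The effects in DMM and in naive are therefore not shown to differ. The vehicle groups also differed in Atf3 by 0.47 (DMM against naive, SE 0.24) without passing, and the AP20187 groups by -0.52 (SE 0.25, adjusted p = 0.304).

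Jun encodes the AP-1 subunit that pairs with FOS or ATF proteins and that injured neurons need for regrowth (chromosome 4, 94937271 to 94940459, minus strand). In DMM with AP20187 it was at 47.7, 47.3, 53.5, 74.5 and 50.7 CPM, and with vehicle at 73.7, 96.8, 73.2, 66.8 and 50.2. The ranges overlapped, with treated mouse 61 above 4 of the 5 vehicle mice and vehicle mouse 64 below 3 of the 5 treated mice. The log2 fold change was -0.40 (SE 0.20, adjusted p = 0.148). It passed with limma voom (-0.54, adjusted p = 0.00936) and against vehicle mice 32 to 34 alone (-0.57, adjusted p = 0.0411). In naive mice the means were 71.7 ± 16.8 (SD, n = 4) with AP20187 and 68.7 ± 13.5 (SD, n = 5) with vehicle, a difference of 0.06 (SE 0.21, adjusted p = 0.864).

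Sox11 encodes a SoxC transcription factor of immature and regenerating neurons (chromosome 12, 27384263 to 27392573, minus strand). It was at 0.697, 6.72, 5.11, 8.03 and 3.29 CPM in treated DMM mice and at 8.94, 8.03, 7.44, 4.11 and 2.24 in DMM with vehicle. Mouse 58, which had the least neuronal RNA, was lowest, and the groups otherwise overlapped. The log2 fold change was -0.37 (SE 0.48, adjusted p = 0.634) in DMM and -0.70 (SE 0.52, adjusted p = 0.372) in naive.

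Gap43 encodes growth-associated protein 43, a membrane-bound protein of the growth cone that is among the classical markers of axon growth (chromosome 16, 42068805 to 42161014, minus strand). In DMM with AP20187 it was at 40.0, 75.8, 83.0, 134 and 68.7 CPM. In DMM with vehicle it was at 208, 166, 144, 232 and 124 CPM. The groups touched only where treated mouse 61 exceeded vehicle mouse 64. The means were 80.4 ± 34.3 and 174.9 ± 44.7 (SD, n = 5 each), a log2 difference of -1.12 (SE 0.26, adjusted p = 0.00581). Leaving out any single library kept the call, with values from -1.39 to -0.95. With DMM vehicle mice 63 and 64 as the only controls the value was -1.11 and the adjusted p 0.0584. Beside it, and beside the lower neuronal RNA, 2 of 7 repair Schwann cell markers and 3 of 7 myelinating Schwann cell markers fell in DMM and 0 rose. Of all tested genes, 12.4% fell and 11.3% rose there. The repair markers summed to 14.1 to 23.1 CPM with AP20187 and 35.2 to 37.2 with vehicle, with up to 2 of the 7 at 0 in a library. Their mean log2 CPM overlapped, at -0.39 to 0.42 with AP20187 and -0.025 to 1.02 with vehicle. The myelinating markers summed to 1652 to 4811 and 3117 to 5306, with none at 0. The part of Schwann cell RNA in the Gap43 difference was not tested.

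In naive mice Gap43 was at 117, 64.1, 106 and 106 CPM with AP20187 and at 183, 159, 153, 131 and 177 with vehicle. Every treated mouse was below every vehicle mouse, and the log2 fold change was -0.71 (SE 0.27, adjusted p = 0.0976). It missed the threshold here but passed under DESeq2 (-0.72, adjusted p = 0.0443) and under limma on log2(FPKM + 1) (-0.91, adjusted p = 0.0275). Fitting naive mice by themselves also gave a pass (-0.69, adjusted p = 0.0418). The AP20187 effects on Gap43 in DMM and naive differed by -0.41 (SE 0.37, adjusted p = 0.900).

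Of the 10 genes, the groups did not overlap for 2 in naive (Atf3 higher, Gap43 lower), where 15.5% of all tested genes did not overlap. In DMM they overlapped for all 10, against 12.9% of all genes apart. For DMM against naive the count was 0 of 10 with vehicle (0.237% of all genes) and 0 of 10 with AP20187 (5.9% of all genes).

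Stmn4, a neuronal stathmin that binds tubulin (chromosome 14, 66581745 to 66599129, plus strand), was at 5.56, 10.6, 10.1, 11.3 and 9.85 CPM in treated DMM mice. With vehicle it was at 19.2, 13.5, 14.8, 13.7 and 8.59 CPM. Vehicle mouse 64 was the 1 vehicle mouse that lay among the treated mice. The log2 fold change of -0.55 (SE 0.26, adjusted p = 0.124) did not pass, and without mouse 64 it was -0.68 with an adjusted p of 0.0440. In naive mice it was at 10.3, 4.27, 10.9 and 10.1 CPM with AP20187 and at 15.04, 14.0, 16.9, 10.3 and 14.2 with vehicle, which gave a log2 difference of -0.66 (SE 0.28, adjusted p = 0.124).

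Sprr1a, a small proline-rich protein first known from the skin barrier and strongly induced in regenerating axons (chromosome 3, 92391259 to 92393202, minus strand), stayed low in every library. It was at 0.515, 0.775, 0.732, 2.43 and 0.815 CPM in treated DMM mice and at 1.43, 3.67, 1.51, 0.891 and 0.486 in DMM with vehicle. In naive mice it was at 2.02, 0.355, 0.370 and 1.10 CPM with AP20187 and at 1.32, 1.63, 0.653, 0 and 0.267 with vehicle. The 0 in vehicle mouse 4 allows up to 0.0484 CPM (3 counts, counting error only). No comparison passed, and the standard errors of 0.82 to 0.87 in the 4 group comparisons leave differences of 1 log2 unit undetectable at these counts. Sprr1a has close relatives in a gene cluster, and how reads shared between them were counted is not given.

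Vgf encodes a neuropeptide precursor raised by neurotrophins (chromosome 5, 137055246 to 137062205, plus strand). It was at 4.12, 16.7, 12.6, 40.7 and 10.7 CPM in treated DMM mice and at 34.4, 51.3, 32.0, 31.0 and 9.26 with vehicle. In naive mice it was at 21.1, 3.70, 30.1 and 27.8 CPM with AP20187 and at 39.0, 55.6, 18.2, 52.4 and 65.8 with vehicle. Mice of a group differed widely, and the libraries with the least neuronal RNA were lowest in both AP20187 groups. The log2 fold changes were -0.90 (SE 0.56, adjusted p = 0.267) in DMM and -1.16 (SE 0.61, adjusted p = 0.214) in naive. Without DMM AP20187 mouse 61 the DMM value was -1.52 with an adjusted p of 0.0490.

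Flrt3 encodes a leucine-rich repeat adhesion protein of axons and growth cones (chromosome 2, 140492834 to 140513389, minus strand). In DMM it was at 5.29, 14.6, 14.2, 24.6 and 14.1 CPM with AP20187 and at 25.5, 27.7, 22.8, 12.3 and 10.3 with vehicle. Vehicle mice 32 to 34 were high and mice 63 and 64 were low, and the direction depended on which were used as controls. The lower neuronal and higher granulocyte precursor and erythroid marker sums of mice 63 and 64, given above, stand beside this, and their part was not tested. Against mice 63 and 64 alone the log2 fold change was 0.39, and against all 5 it was -0.44 (SE 0.34, adjusted p = 0.376). In naive mice it was -0.44 (SE 0.36, adjusted p = 0.420).

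Ecel1, a membrane metallopeptidase-like protein known as damage-induced neuronal endopeptidase (chromosome 1, 87075377 to 87084243, minus strand), was close to 1 CPM or lower in most libraries. It was at 0, 0.287, 0.302 and 0.454 CPM in naive with AP20187 and at 1.29, 0.995, 1.13, 0.436 and 0.775 with vehicle. The 0 in mouse 1 allows up to 0.0519 CPM, and vehicle mouse 4 lay within the treated range. The log2 fold change of -1.82 (SE 0.72, adjusted p = 0.105) did not pass with edgeR and did with DESeq2 (-1.84, adjusted p = 0.0245). In DMM it was -0.84 (SE 0.64, adjusted p = 0.371). Beside it, the summed level of 8 central neuron markers was 11.3 to 21.3 CPM in naive with AP20187 and 19.4 to 46.5 with vehicle. Of the 8, 5 were lower, where 2.57% of all genes were, and their part in the Ecel1 values was not tested.

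Gadd45a, a stress-induced protein of growth arrest and DNA repair that is also induced in injured sensory neurons (chromosome 6, 67012080 to 67014390, minus strand), leaned the other way from most of the list. It was at 25.2, 22.4, 26.2, 23.3 and 29.7 CPM in treated DMM mice and at 16.7, 15.7, 19.2, 27.7 and 31.2 with vehicle. Vehicle mice 32 to 34 were below all treated mice, while mice 63 and 64 were within or above them. The log2 fold change was 0.20 (SE 0.19, adjusted p = 0.503) against all 5 vehicle mice and 0.56 against mice 32 to 34, where it passed. Against mice 63 and 64 it was -0.20. In naive mice it was 0.33 (SE 0.21, adjusted p = 0.293).

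**Figure D2:**
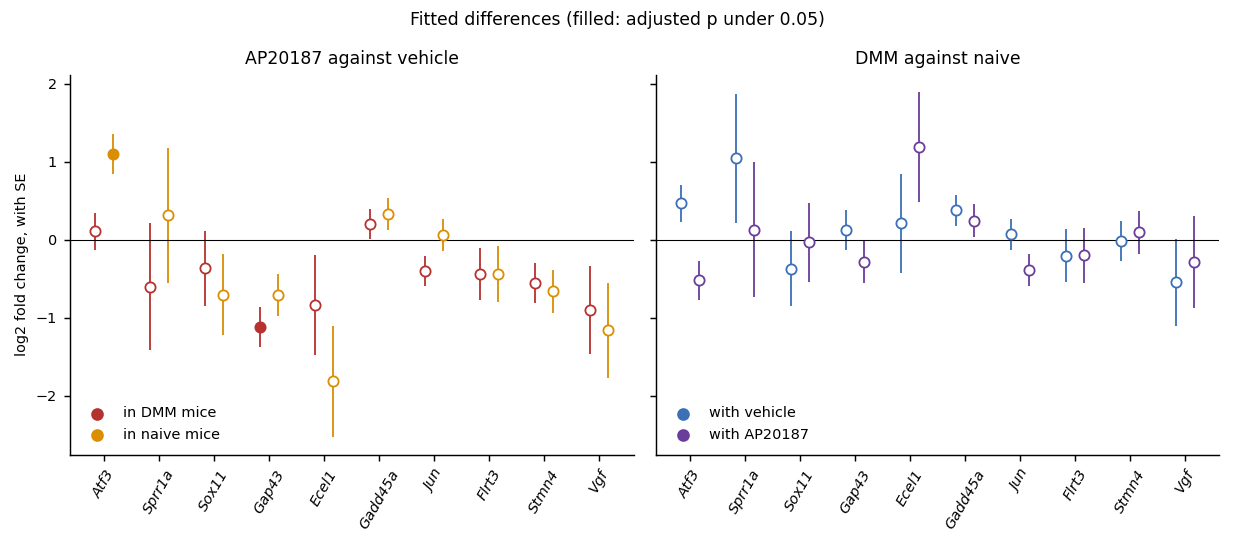
Log2 fold change with its SE (vertical axis) of each gene for AP20187 against vehicle (left) and DMM against naive (right), filled where the adjusted p is under 0.05. The 2 filled points are Gap43 in DMM mice (-1.12) and Atf3 in naive mice (1.10), and none is filled on the right.

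Well after DMM surgery, at 8 weeks, the injury genes of vehicle-treated mice did not differ detectably from those of naive mice. The largest log2 difference was that of Sprr1a at 1.04 (SE 0.82), followed in size by Vgf at -0.55 (SE 0.56) and Atf3 at 0.47 (SE 0.24). The other 7 lay between -0.37 (Sox11) and 0.38 (Gadd45a, SE 0.20), and all adjusted p were 1. DMM vehicle mice 63 and 64 alone gave a pass for Gadd45a (0.81, adjusted p = 0.0485), which mice 32 to 34 did not. With AP20187 the values ran from -0.52 for Atf3 to 1.19 for Ecel1 (SE 0.70, adjusted p = 0.400).

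The 10 genes differed in how closely they followed neuronal RNA. Over the 19 libraries, the log2 CPM of Vgf, Flrt3, Gap43, Stmn4, Sox11 and Jun followed the mean log2 CPM of the pan-neuronal markers with Pearson r of 0.92, 0.89, 0.88, 0.86, 0.86 and 0.75. Ecel1 and Sprr1a had r of 0.36 and 0.21, Atf3 had -0.12 and Gadd45a had -0.58. With the group means taken out, the first 6 were still at 0.77 to 0.92, Sprr1a was at 0.47, Atf3 at 0.39, Ecel1 at 0.23 and Gadd45a at -0.38. The r values of Ecel1 and Sprr1a each include 1 library at 0 counts. Its log2 CPM of -5.02 lies far below the other libraries, and r without it was not computed. Among themselves the 6 genes correlated at 0.44 to 0.94 (15 pairs, median 0.79). The 6 were set apart after their values were seen, the libraries share their scaling and their treatment groups, and these values are a description.

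**Figure D3:**
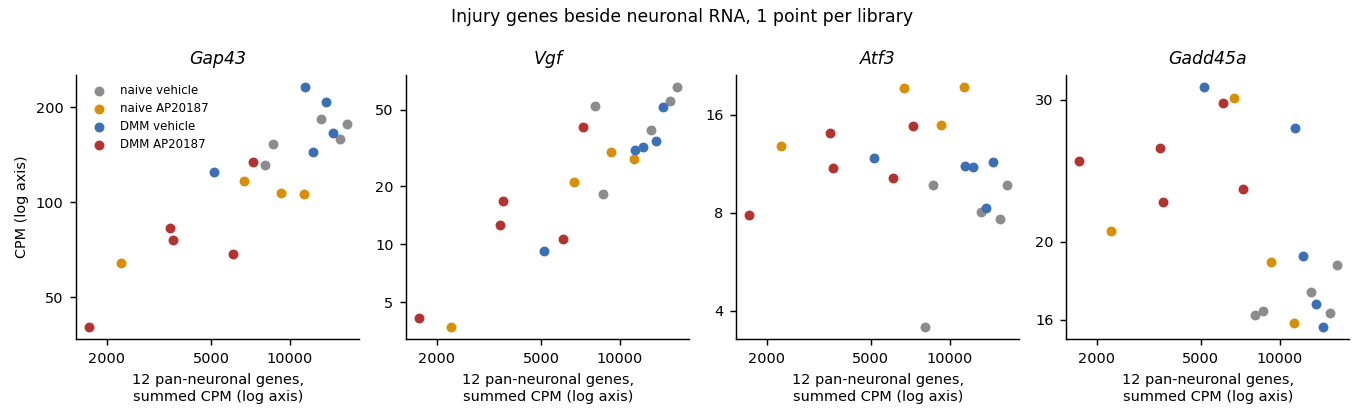
CPM of Gap43, Vgf, Atf3 and Gadd45a (vertical, log axes) against the summed CPM of 12 pan-neuronal markers (horizontal, log axes), 1 point per library, coloured by group. Gap43 and Vgf climb with the neuronal markers over the 19 libraries (r 0.88 and 0.92), while Atf3 does not and Gadd45a runs the other way.

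Set against neuronal RNA, Gap43 no longer fell. Per 1000 pan-neuronal counts it was at 23.4, 21.2, 23.7, 18.6 and 11.3 in DMM with AP20187 and at 15.1, 11.3, 11.7, 20.2 and 24.1 with vehicle, and these ranges overlapped. With libraries scaled to the pan-neuronal counts its log2 fold change was 0.25 (adjusted p = 0.541). On this scale the median of all tested genes was 1.41 in DMM and 1.06 in naive, so a value near 0 is low relative to other genes, and the scale treats any gain of RNA from other cells as a rise.

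Atf3 rose on both scales in naive mice. It was at 2.89, 5.70, 1.61 and 1.73 per 1000 pan-neuronal counts with AP20187 and at 0.613, 0.491, 1.13, 0.441 and 0.590 with vehicle, again with no overlap. Its neuron-scaled log2 fold change was 2.19 (adjusted p = 0.0210), against 8.77% of all genes that rose on that scale, and it was the only one of the 10 to pass. In DMM, 6 of the 10 rose on the neuron scale, which 44.2% of all genes also did. They were Gadd45a (1.57), Atf3 (1.48), Jun (1.17), Sox11 (1.06), Flrt3 (0.97) and Stmn4 (0.95), and 4 of these, Jun, Sox11, Flrt3 and Stmn4, had negative values on the TMM scale. Relative to the all-gene median of 1.41, 2 of the 6 lay above it (Gadd45a and Atf3) and 4 below it.

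Per length, Gap43 was the most abundant of the 10 in all 4 groups. Its median FPKM was 100.7 in naive with vehicle, 61.8 in naive with AP20187, 105.8 in DMM with vehicle and 49.3 in DMM with AP20187, and in each group its range lay apart from that of Jun, the next. Jun followed at medians of 15.5 to 22.1. Gadd45a (9.33 to 14.6), Vgf (4.24 to 17.2), Stmn4 (4.63 to 7.17), Atf3 (3.67 to 6.67) and Flrt3 (2.92 to 4.79) formed a middle band in which most neighbours overlapped over libraries. Sprr1a and Sox11 were at medians of 0.516 to 1.69, and Ecel1 was lowest in all 4 groups at 0.0689 to 0.265. The order of Atf3 and Flrt3 was turned between naive mice with vehicle (Flrt3 4.70, Atf3 3.67, overlapping) and with AP20187 (Atf3 6.67, Flrt3 3.11, apart).

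For each gene, the tested genes most like it in log2 CPM over the 19 libraries were listed, with Pearson r and no test. Gap43 was closest to Bex2, Snx7 and Dusp26 (each r = 0.96), Sox11 to Cacna2d1 (0.96), a calcium channel subunit raised after nerve injury, and Vgf to Nptx2 (0.97). Stmn4 was closest to Dnaja1 (0.98), Crbn (0.97) and Hsp90aa1 (0.96), 2 of which are chaperone genes. Flrt3 was closest to Zfp941 (0.97), Jun to Pcgf3 (0.91) and Gadd45a to Taldo1 (0.91). Atf3 was closest to Fah (0.82) and to Il1a (0.79), which encodes a cytokine of myeloid and barrier cells. Sprr1a reached no more than 0.73 (Zcwpw1). Ecel1 was closest to Mog (0.93), a gene of central myelin.

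The wider injury response was read from 4 lists written with earlier results of these data known. Of 18 injury transcription factors, 7 rose and 2 fell in DMM, where 11.3% and 12.4% of all genes did. In naive 6 rose and 0 fell, beside 8.61% and 2.57% of all genes. The medians were 0.62 and 0.61 on the log2 scale, and the falls in DMM were near the background. Nfil3, a basic leucine zipper factor induced with regeneration, was at 24.4, 21.1, 20.8, 16.8 and 22.5 CPM in treated DMM mice and at 4.66, 4.61, 4.83, 7.28 and 11.3 with vehicle. It rose by 1.69 (SE 0.25, adjusted p = 0.00031) in DMM and by 1.88 (SE 0.26, adjusted p = 0.000317) in naive, with no treated mouse in the vehicle range. Junb (1.79), Myc (1.09), Fosl2 (1.36) and Nfe2l2 (0.66) also rose in DMM, and Ddit3 fell by 0.64. In naive, Nfe2l2 (0.80), Junb (1.08), Myc (0.97), Fosl2 (1.33) and Cebpb (3.63) rose. The naive calls of Fosl2 and Cebpb were lost without AP20187 mouse 3 (adjusted p 0.0600 and 0.0538), and that of Myc without AP20187 mouse 1 (0.0517). That of Junb was lost in 4 of 9 fits, without AP20187 mouse 1 or 3 or vehicle mouse 1 or 2 (adjusted p up to 0.123). In DMM, 1 of the 7 rises (Klf6) and 1 of the 2 falls (Jund) were lost when some single library was left out, with adjusted p up to 0.0630 and 0.0814. Stat3, a central factor of the injury response, did not pass (-0.05 in DMM, -0.30 in naive). Against DMM vehicle mice 63 and 64 alone, 2 of the 18 rose and 2 fell, where 2.71% and 2.02% of all genes did. Many of these factors are also active in myeloid cells. The granulocyte precursor markers were higher in both comparisons, as given above, and their part in the values of these factors was not tested. Of the 8 macrophage markers 1 rose in DMM, close to the 11.3% of all genes, with overlapping sums (196 to 813 and 131 to 532 CPM), and 3 rose in naive, where 8.61% of all genes did.

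Of 20 growth cone and cytoskeleton genes, 3 rose and 10 fell in DMM (11.3% and 12.4% of all genes), a median of -0.73, and 3 rose and 2 fell in naive (8.61% and 2.57% of all genes). The share that rose in DMM was near the background. The 2 that fell in naive were Tubb2b (-1.13, SE 0.34) and Hspb1 (-0.60, SE 0.18), and each call was lost in 6 of 9 fits that left out 1 mouse, AP20187 mice 1 and 3 and vehicle mice 1, 2 and 5 in both (adjusted p up to 0.123 and 0.183). Those that fell in DMM included the neuronal tubulins Tubb2b (-1.45, SE 0.32) and Tubb2a (-1.29, SE 0.31), the growth cone protein Basp1 (-1.13, SE 0.29), Stmn2 (-0.99, SE 0.27) and the small heat shock protein Hspb1 (-0.84, SE 0.17). Stmn2, a stathmin needed for axon maintenance, was at 439, 703, 716, 836 and 576 CPM with AP20187, all below the lowest vehicle mouse, 64. The 3 that rose were the same in DMM and naive: Anxa1 (3.44 and 3.70), Marcksl1 (2.05 and 1.86) and Cap1 (0.82 and 0.76), none of which is specific to neurons. Of the 10 falls in DMM, 5 (Dpysl2, Dpysl3, Dpysl5, Kif5a and Tubb3) were lost when some single library was left out, with adjusted p up to 0.103. On the neuron scale 6 of the 20 rose in DMM, below the 44.2% of all genes that rose there, and 0 fell, against 0.299% of all genes. Against vehicle mice 63 and 64 alone, 2 rose and 2 fell, beside 2.71% and 2.02% of all genes.

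Of 15 tested injury peptides and secreted factors, 3 rose and 0 fell in DMM (11.3% and 12.4% of all genes), and 4 rose and 1 fell in naive (8.61% and 2.57%). Csf1, the factor by which injured neurons recruit microglia, rose by 0.94 (SE 0.18, adjusted p = 0.00193) in DMM and 1.00 (SE 0.19, adjusted p = 0.00313) in naive. Timp1, a protease inhibitor, rose by 2.18 and 2.61, and the chemokine gene Ccl2 by 2.51 in naive. Beside these, the granulocyte precursor markers were higher in DMM and in naive, as given above. Their part in the rises of Csf1, Timp1 and Ccl2 was not tested. Fst, the activin-binding protein follistatin, rose by 1.37 (SE 0.43) in DMM, a call lost in 6 of 10 fits, without AP20187 mouse 58 or 59 or vehicle mouse 32, 33, 34 or 63 (adjusted p up to 0.0894). Nts, the peptide neurotensin, rose by 1.14 (SE 0.36) in naive, a call lost in 7 of 9 fits, kept only without AP20187 mouse 5 or vehicle mouse 3 (adjusted p up to 0.180). The 1 that fell in naive was Cck, the peptide cholecystokinin, at 0 to 0.567 CPM with AP20187 and 1.14 to 1.89 with vehicle. Its call was lost on the neuron scale (adjusted p = 0.0734) and with the replicate block (0.0786). Beside it, 5 of 8 central neuron markers and 2 of 7 central glia markers fell in naive, and their part in the Cck values was not tested. Galanin, the peptide most raised in injured sensory neurons, did not pass (Gal, -0.96 in DMM with SE 0.47 and adjusted p = 0.140, -0.48 in naive). Neuropeptide Y did not pass either (Npy, 0.90 in DMM, SE 0.71, -0.83 in naive, SE 0.77).

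Of 19 tested receptors, channels and enzymes, 3 rose and 5 fell in DMM (11.3% and 12.4% of all genes), and 5 rose and 0 fell in naive (8.61% and 2.57%). The share that rose in DMM was near the background. Socs3, the feedback inhibitor of cytokine signalling that restrains axon regrowth, was at 34.3 to 62.4 CPM in treated DMM mice and at 5.67 to 12.9 with vehicle. It rose by 2.48 (SE 0.27, adjusted p = 2.87e-05) in DMM and by 2.17 (SE 0.28, adjusted p = 0.000176) in naive. Tgm1, a transglutaminase, and Plaur, the urokinase receptor, rose in both (4.60 and 5.21, 2.05 and 1.82). The granulocyte precursor markers were higher in both as well, and their part in the rises of Socs3, Tgm1 and Plaur was not tested. The neurotrophin receptor gene Ngfr (-1.72), Npy2r (-1.99), Gfra1 (-0.82), Lifr (-1.16) and Itga7 (-0.99) fell in DMM, with adjusted p of 0.0239 to 0.0473. Each of these 5 calls was lost without DMM AP20187 mouse 58, mouse 60, mouse 62 or DMM vehicle mouse 32 or 33, with adjusted p up to 0.132, and some also without AP20187 mouse 59 or vehicle mouse 34. The subunit gene Cacna2d1 did not pass (-0.97 in DMM, SE 0.48, adjusted p = 0.148). In the surgery comparison after vehicle, the surgery comparison after AP20187, and their interaction, edgeR passed 0 of the 72 tested genes of the 4 lists in each, with 4, 14 and 6 at an unadjusted p under 0.05, against 1.66%, 16.7% and 7.67% of all genes. DESeq2 passed 0, 3 and 1 of the 72, against 0%, 4.87% and 1% of all genes. On the neuron scale 0 genes of the 4 lists fell in either AP20187 comparison, where 0.299% of all genes fell in DMM and 0.206% in naive. In DMM 13 of the 18 transcription factors, 7 of the 15 peptides and secreted factors and 7 of the 19 receptors, channels and enzymes rose on that scale, beside 44.2% of all genes, so the counts of the latter pair of lists were near or below the background. Against DMM vehicle mice 63 and 64 alone, 0 peptides and secreted factors passed, and 2 receptors, channels and enzymes rose and 0 fell, beside 2.71% and 2.02% of all genes.

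**Figure D4:**
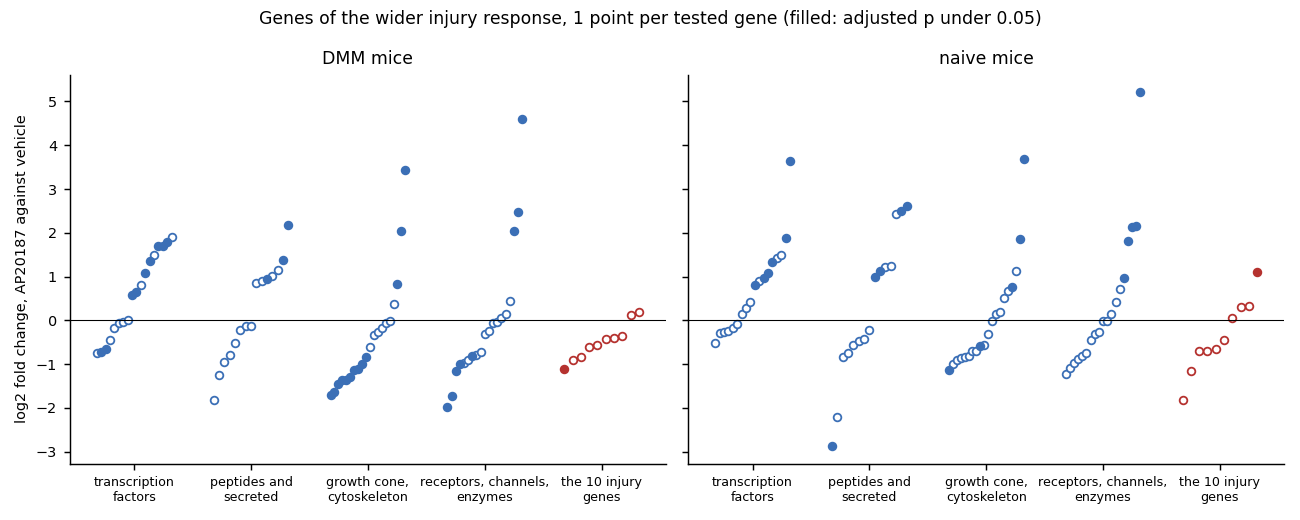
Log2 fold change of AP20187 against vehicle (vertical axis) for each tested gene of the 4 lists (blue) and the 10 injury genes (red), sorted within a list, in DMM (left) and naive mice (right), filled where the adjusted p is under 0.05. The 10 red points hold 1 filled point in each panel, and the growth cone list in DMM has 10 filled points below 0.

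Close relatives of the 10 genes that passed the test moved in both directions. Of all tested genes, 11.3% rose and 12.4% fell in DMM, and 8.61% and 2.57% in naive. Most relatives that did not pass are not named, so the calls below are not a share to set against these. Beside Atf3, whose rise passed the test in naive mice, Jdp2 rose in DMM (1.27, SE 0.31) and Batf rose in both (2.26 and 2.33), while Atf4 had values of 0.00012 and 0.27 that did not pass. Against DMM vehicle mice 63 and 64 alone neither DMM call passed (Jdp2 0.65, adjusted p = 0.290, and Batf 1.42, adjusted p = 0.291). The naive call of Batf was lost without AP20187 mouse 1 or mouse 3 (adjusted p up to 0.0954). Beside Gadd45a, which passed in neither, Gadd45g (1.27, SE 0.24) and Gadd45b (0.86, SE 0.21) rose in DMM, but neither passed against mice 63 and 64 alone (0.83, adjusted p = 0.0998, and 0.55, adjusted p = 0.253). Beside Jun, Junb rose in DMM (1.79, SE 0.28), where it was at 35.4 to 79.9 CPM with AP20187 and 11.5 to 30.3 with vehicle. It also rose in naive (1.08, SE 0.29), at 20.2 to 51.3 and 13.5 to 20.4 CPM, a call that single libraries decided, as given above. Beside Sox11, the SoxC gene Sox4 fell in both (-0.87, SE 0.15, adjusted p = 0.000982, and -0.67, SE 0.16, adjusted p = 0.0124). On the neuron scale Sox4 had values of 0.65 and 0.40 that did not pass. Beside Sox4, 6 of 7 early B lineage markers fell in DMM and 5 of 7 in naive, where 12.4% and 2.57% of all genes fell. Up to 3 of the 7 were at 0 in a library, and their part in the Sox4 values was not tested. Sox12 beside Sox11 (-0.73, SE 0.23), the granin gene Scg2 beside Vgf (-1.19, SE 0.39) and the endopeptidase gene Ece2 beside Ecel1 (-1.15, SE 0.40) fell in DMM. These calls were lost in 5, 7 and 8 of 10 fits that left out 1 library, each of them without AP20187 mouse 58 or 60 or vehicle mouse 32, 33 or 34 (adjusted p up to 0.0806, 0.0925 and 0.116), and against vehicle mice 63 and 64 alone (-0.38, -0.55 and -0.49, adjusted p from 0.527 to 0.657). On the neuron scale the values were 0.75, 0.26 and 0.25. Beside Gap43, Basp1 fell in DMM as given above. Differences between a gene and its relative were not tested.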

How the data were processed

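Poly(A) RNA of pooled ganglia was sequenced for 1 library per mouse, from stranded TruSeq libraries per the labels' protocols. The deposited values are raw whole-number gene counts and, in a further table, FPKM from the authors, which divide fragments by gene length and depth. HISAT2, StringTie, cutadapt and GRCm39 are named without versions per the submitters' processing notes. The annotation, the counting settings and the use of strand are not given in the sources used here, so overlapping antisense genes cannot be told apart. The deposited count table held 56691 entries, of which 6448 had no gene name. Library totals were equal in both tables for 18 of 19 libraries, and the counts of all 10 injury genes were equal.

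Counts were tested with edgeR 4.0.16 (R 4.3.3), using glmQLFit and glmQLFTest (quasi-likelihood F test), TMM scaling and filterByExpr (minimum count 10), which left 22778 genes, all 10 injury genes among them. A single model of 4 groups was fitted to all 19 libraries (15 residual degrees of freedom), and 5 contrasts were taken. P-values are two-sided and were adjusted by Benjamini-Hochberg across the 22778 genes of a contrast, with a threshold of 0.05. The SE of a log2 fold change was its size divided by the square root of F. Log2 CPM used a prior count of 2. FPKM served for the order of levels and, with a pseudocount of 1, for an alternative with limma 3.58.1. On simulated counts for the real genes the fit recovered 186 of 200 changed genes, with 11 false calls. The changed genes were given large changes and all genes the same spread. The run checks the code and does not measure how often smaller or noisier differences would be found.

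Alternatives were DESeq2 1.42.0, RLE factors, library totals, scaling to pan-neuronal counts, no filter, limma on FPKM, limma voom with sample weights, a fit of only the groups compared, either number series of DMM vehicle, a replicate block in naive and leaving out each library. The injury genes, gene lists, tests and alternatives were chosen with earlier results of these data known, and the variant CRE after reading the promoters. The rule for named genes took all 10 injury genes, up to 5 genes per list, contrast and direction with the smallest adjusted p, relatives that passed and the 3 most similar genes of each injury gene, of which some are printed. Other genes without a pass (Stat3, Gal, Npy, Cacna2d1, Atf4) are named as known members of their lists, after their values were seen. Promoter sequences are RefSeq's on GRCm38.p6, and gene positions are those of the files on GRCm39.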

Additional observations from a re-analysis of the deposited data

Results flagged for a closer look

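In 6 of the 40 gene and group combinations, 1 mouse lay farther from the rest of its group than Dixon's test allows, and chance gives about 1 in 20. Both values of DMM AP20187 mouse 61 were high, at 2.43 CPM for Sprr1a and 74.5 CPM for Jun, and this mouse had the most neuronal RNA of its group. The lowest values of Stmn4 were those of DMM AP20187 mouse 58 (5.56 CPM) and naive AP20187 mouse 3 (4.27 CPM), the mice with the least neuronal RNA of their groups. DMM vehicle mouse 32 had the lowest Atf3 of its group (8.29 CPM), and naive vehicle mouse 4 the lowest Flrt3 (17.3 CPM).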

How the results depend on the processing

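Gap43 in DMM and Atf3 in naive kept their sign and call under all alternatives, except that Gap43 turned to 0.25 on the neuron scale and missed the threshold with DMM vehicle mice 63 and 64 only (-1.11). The count of injury genes that passed in DMM was 1 of 10 (23.8% of all genes). It was 6 on the neuron scale, all higher (44.5%), 6 with limma voom, Gadd45a higher and Gap43, Jun, Flrt3, Stmn4 and Vgf lower (46.9%), 4 with DMM vehicle mice 32 to 34 only, Gadd45a higher and Gap43, Jun and Stmn4 lower (36.3%), and 0 with mice 63 and 64 only (4.73%). It ran from 1 to 2 when single libraries were left out (14.2% to 34.0%). In naive it was 1 (11.2%), and was 3 with DESeq2 (19.1%), 3 with limma on FPKM (18.2%), 3 with limma voom (19.9%), 2 with only the groups compared (13%) and 3 with the replicate block (11.5%). For DMM against naive with vehicle it was 0 (0%), and 1 with DMM vehicle mice 63 and 64 only (2.21%). Of 1030 alternative values of injury genes, 87 turned sign. Of all 1030, 26 passed where the main value had not and 2 no longer passed, and the sign had also turned in 4 and 1 of these. Naive mice of like number did not vary together (correlations of 0.02, 0.30, -0.08 and 0.18), so the numbers are not taken as pairs, and 1 of 4 treated mice was closest to its own number. The block gave Gap43 -0.71 (adjusted p = 0.0478), Vgf -1.27 (0.0311) and Atf3 1.20 (0.0429). Why these values differ was not tested.

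Scaled to pan-neuronal counts, values whose sign turned were for AP20187 in DMM Sprr1a 0.88, Sox11 1.06, Gap43 0.25, Ecel1 0.92, Jun 1.17, Flrt3 0.97, Stmn4 0.95, Vgf 0.47, Ddit3 0.80, Jund 0.74, Hspb1 0.75, Tubb2a 0.15, Basp1 0.28, Stmn2 0.53, Gfra1 0.65, Itga7 0.49, Lifr 0.28, Sox4 0.65, Sox12 0.75, Scg2 0.26 and Ece2 0.25. Others were for AP20187 in naive Sox11 0.071, Gap43 0.28, Flrt3 0.42, Stmn4 0.17, Hspb1 0.51 and Sox4 0.40. Others were for DMM against naive with vehicle Stmn4 0.057. Others were for DMM against naive with AP20187 Atf3 0.054, Sox11 0.63, Gap43 0.24, Jun 0.25, Flrt3 0.37 and Vgf 0.46. Others were for the interaction Gadd45a 0.048 and Jun 0.047. With DMM vehicle mice 63 and 64 only, values whose sign turned were for AP20187 in DMM Sprr1a 0.64, Sox11 0.63, Ecel1 0.18, Gadd45a -0.20 and Flrt3 0.39. Others were for DMM against naive with vehicle Sprr1a -0.18, Ecel1 -0.76 and Jun -0.23. Others were for the interaction Sprr1a 0.32. With DMM vehicle mice 32 to 34 only, values whose sign turned were for DMM against naive with vehicle Sox11 0.030, Flrt3 0.16 and Stmn4 0.17. Others were for the interaction Sox11 -0.065, Gadd45a 0.23, Flrt3 -0.36, Stmn4 -0.075 and Vgf -0.048. With library totals only, values whose sign turned were for AP20187 in naive Jun -0.0070. Others were for DMM against naive with vehicle Stmn4 0.0053. Others were for DMM against naive with AP20187 Sox11 0.038. With limma on log2(FPKM + 1), values whose sign turned were for AP20187 in naive Jun -0.12. Others were for DMM against naive with AP20187 Sox11 0.027. Others were for the interaction Gadd45a 0.093. With limma voom, values whose sign turned were for DMM against naive with vehicle Gap43 -0.012 and Stmn4 0.045. Others were for the interaction Gadd45a 0.17, Flrt3 -0.31, Stmn4 -0.0046 and Vgf -0.28. Leaving out 1 library turned the sign of small values, whose ranges were -0.35 to 0.78 for Sprr1a in AP20187 in naive, -0.078 to 0.15 for Jun in AP20187 in naive, -0.0020 to 0.22 for Gap43 in DMM against naive with vehicle, -0.27 to 0.41 for Ecel1 in DMM against naive with vehicle, -0.058 to 0.18 for Jun in DMM against naive with vehicle, -0.18 to 0.12 for Stmn4 in DMM against naive with vehicle, -0.44 to 0.79 for Sprr1a in DMM against naive with AP20187, -0.30 to 0.25 for Sox11 in DMM against naive with AP20187, -0.47 to 0.012 for Flrt3 in DMM against naive with AP20187, -0.14 to 0.24 for Stmn4 in DMM against naive with AP20187, -0.23 to 0.080 for Gadd45a in the interaction, -0.27 to 0.22 for Flrt3 in the interaction, -0.11 to 0.26 for Stmn4 in the interaction, -0.36 to 0.51 for Vgf in the interaction. With 4 or 5 mice per group, even large differences of the genes with few counts could miss the threshold (Ecel1 in naive, -1.82 with SE 0.72). Absence of a call does not show absence of a difference. Neuronal RNA varied within every group, and its part in the missed calls was not tested.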
